A study of Mus musculus with 6 samples.

Results

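The FANTOM3 clones described here are full-length mouse cDNAs of the RIKEN collection that were entered as features of their own in the deposited expression table and that lie on the strand opposite to a named gene. A clone was taken as antisense where its interval overlapped at least 1 named gene on the other strand and none on its own strand, and was kept where at least 10 counts were present in at least 3 of the 6 libraries. The rule kept 1747 clones out of 3478 antisense clones, in a table of 56825 entries of which 33353 were FANTOM3 clones and 23472 were named genes. The 1747 clones formed 1532 loci, joining clones that overlapped each other on a strand, and lay across 1392 named genes. Each clone was paired with the named gene that shared the most bases with it, since 114 clones overlapped more than 1.

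RNA came from mouse LSECs (liver sinusoidal endothelial cells), which form the porous wall of the small vessels of the liver. Of the 6 libraries, 3 were RBPjcKO, an endothelial conditional knockout of Rbpj, and 3 were wild type (WT). All mice were C57BL/6 and 7 to 8 weeks old, and mice of both genotypes, the controls included, had received tamoxifen by intraperitoneal injection. The promoter driving the recombinase was not given in the sources used here. The labels do not say that libraries are separate animals, so p-values reflect only how these libraries vary, which may be technical.

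Rbpj binds DNA and passes signals of Notch receptors on to their target genes. Antisense transcripts are RNAs made from the strand opposite to a gene. They can start near the promoter of the gene and run away from it (head to head), run into its 3′ end (tail to tail) or lie wholly inside it, and many are non-coding, short-lived and held in the nucleus. Mammalian cDNA collections hold such pairs for a large part of all genes, and single examples are known to silence or to sustain the gene opposite. A library that does not record strand cannot tell an antisense transcript from its gene where both share bases, and whether the counting used strand was not given in the sources used here. Each clone is therefore set beside its gene throughout.

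The bases that some of these clones share with the gene opposite show what a strand-blind count would confuse. The clone 4930440E06 lies inside Ube2c, which encodes the ubiquitin-conjugating enzyme of the anaphase-promoting complex. It shares 87 coding bases with Ube2c at chr2:164771293-164771379, which are 13.1% of the 663 bases of the clone. The clone A230074C22 lies inside Plk1, the gene of a mitotic kinase, and shares 156 coding bases at chr7:122167597-122167752, 15.4% of its 1016 bases. The clone B830037D16 lies inside Nusap1, the gene of a protein that bundles spindle microtubules. With the Nusap1 transcript shown it shares 169 coding bases at chr2:119630337-119630505, 5.5% of its 3072 bases. In all, 288 bases of B830037D16 lie in annotated exons of the other strand. The lines below give the gene's strand (plus, GRCm38, GENCODE M21 transcripts) from 5′ to 3′, with the bases that lie inside the clone in capitals and 15 further transcript bases on each side in lower case.
Ube2c: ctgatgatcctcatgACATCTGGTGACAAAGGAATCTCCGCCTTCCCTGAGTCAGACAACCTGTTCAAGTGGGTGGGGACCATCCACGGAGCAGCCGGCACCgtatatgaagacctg
Plk1: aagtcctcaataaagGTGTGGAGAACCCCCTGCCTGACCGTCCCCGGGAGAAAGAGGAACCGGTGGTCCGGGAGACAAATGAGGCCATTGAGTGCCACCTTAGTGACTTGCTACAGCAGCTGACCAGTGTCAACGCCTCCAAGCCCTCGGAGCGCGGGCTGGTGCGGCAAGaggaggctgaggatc
Nusap1: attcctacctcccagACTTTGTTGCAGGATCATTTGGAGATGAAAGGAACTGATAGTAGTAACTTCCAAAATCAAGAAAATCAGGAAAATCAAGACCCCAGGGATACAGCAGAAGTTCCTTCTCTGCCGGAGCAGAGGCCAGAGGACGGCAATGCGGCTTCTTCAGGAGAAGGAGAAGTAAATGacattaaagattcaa
No other base of the clones 4930440E06 and A230074C22 lies in an annotated exon of the other strand.

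A further pair is shown for clones that cover the start of their gene. Both clones lie on the minus strand and begin inside the gene, so the windows are promoters of the genes, not of the clones. The clone G830028C15 covers all 300 bases of the Nek2 promoter window at chr1:191821223-191821522 (plus strand), and 8030422L16 covers all 300 bases of the Gna14 window at chr19:16435417-16435716 (plus strand). Nek2 encodes a kinase of the centrosome, and Gna14 an alpha subunit of the Gq family of G proteins. The windows run from 250 bases before to 50 bases after the gene's start and are RefSeq sequences on GRCm38.p6. Capitals mark the letters searched on both strands, which were CCAAT (the CCAAT box), TTTGAA (the cell-cycle homology region) and TGGGAA (the core of the site that Rbpj binds).
Nek2: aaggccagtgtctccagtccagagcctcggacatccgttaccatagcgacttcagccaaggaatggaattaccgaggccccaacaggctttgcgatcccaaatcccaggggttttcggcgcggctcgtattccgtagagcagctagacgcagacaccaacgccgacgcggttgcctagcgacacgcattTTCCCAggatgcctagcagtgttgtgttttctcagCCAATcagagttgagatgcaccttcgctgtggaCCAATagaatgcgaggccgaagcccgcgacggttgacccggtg
Gna14: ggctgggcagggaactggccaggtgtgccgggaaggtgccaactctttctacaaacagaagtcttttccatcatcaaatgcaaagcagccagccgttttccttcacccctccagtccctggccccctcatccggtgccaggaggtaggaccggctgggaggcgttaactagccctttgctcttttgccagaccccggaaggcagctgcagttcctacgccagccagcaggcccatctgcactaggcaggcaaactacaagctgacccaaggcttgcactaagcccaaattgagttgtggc
The Nek2 window held CCAAT 2 times and the Rbpj core 1 time, as TTCCCA, and no TTTGAA. The Gna14 window held none of the motifs. Among 32851 promoter windows of the same length, 37.4% held CCAAT, 25.6% the Rbpj core and 17.9% TTTGAA.

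Libraries held between 37307663 and 48370102 counts over all entries, and the antisense clones took 1.87% to 2.01% of them. Rbpj had 14.2, 16.5 and 14.6 CPM (counts scaled to the library total by TMM) in RBPjcKO libraries, against 35.6, 38.3 and 37.5 CPM in WT libraries, a log2 fold change of −1.30 (SE 0.11, edgeR adjusted p = 0.000777). Markers of LSECs summed to 14930 to 17960 CPM in RBPjcKO libraries and 15450 to 17840 CPM in WT libraries, for 8 of 10 listed genes found by name, with 1 of 8 lower. General endothelial markers summed to 5010 to 5302 CPM in RBPjcKO libraries and 3813 to 4971 CPM in WT libraries, so the groups did not overlap, with 1 of 5 higher. Summed levels of 5 cholangiocyte markers were 67.2 to 98.7 CPM in RBPjcKO libraries and 151 to 306 CPM in WT libraries, with 3 of 5 lower. Those of 6 stellate cell markers were 692 to 1035 CPM against 1155 to 1368 CPM, with 2 of 6 lower, and those of 10 hepatocyte markers 895 to 3007 CPM against 701 to 1460 CPM, with 1 of 10 higher. Kupffer cell markers summed to 269 to 807 CPM in RBPjcKO libraries and 570 to 1323 CPM in WT libraries, with none of 6 called. Lymphocyte markers summed to 7.79 to 21.9 CPM against 15.9 to 16.5 CPM, with 2 of 4 higher, and erythroid markers to 2.65 to 9.91 CPM against 1.33 to 7.14 CPM, with none of 3 called. No marker of these lists was at 0 in every library, and the part of these cells in the results below was not tested.

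RBPjcKO LSECs differed from WT LSECs in a small share of the antisense clones, about equally in both directions. By edgeR, of 1733 clones tested, 67 were higher (3.87%) and 57 lower (3.29%) in RBPjcKO, together 124 clones or 7.16% in 108 loci across 106 genes. A call means an adjusted p under 0.05 in the quasi-likelihood test of edgeR, adjusted by Benjamini and Hochberg over all 29067 entries tested. DESeq2 called more, with 111 higher and 102 lower, or 12.6% of the 1695 clones to which it gave an adjusted p, against 17.0% of all entries with one. In edgeR the background over all entries was 10.7% called, 5.83% higher and 4.84% lower, and over named genes alone 14.5%. Clones on the same strand as a named gene were called in 6.86% of cases and clones outside named genes in 5.30%, so the antisense share lay below that of named genes and near that of same-strand clones. The 2 groups of libraries did not overlap for 561 antisense clones, or 32.4% of those tested, against 34.7% of all entries. The median log2 fold change was −0.07 over antisense clones and −0.01 over all entries. In bulk libraries such as these, fewer cells of a type and less RNA per cell cannot be told apart.

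Many of the calls were lost without 1 of the libraries. Without WT replicate 2, 19 clones were higher and 19 lower, and 38 of the 124 calls remained. Without RBPjcKO replicates 1, 2 and 3 in turn, 64, 59 and 65 of the calls remained, and without WT replicates 1 and 3, 79 and 75. Of the 124 called clones, 34 were called whichever library was left out. Fewer libraries lower such counts. The share of all called entries that remained in these fits is not given here, so the loss cannot be set against a background. Of the 124, 12 had under 10 counts in at least 1 library of the lower group, 5 of them in all 3 libraries, and so met the count rule only with the help of the group where they were high. Those described here are G830028C15 (Nek2), B830037D16 (Nusap1), D930003E18 (Slc43a1), F730016G06 (Clmp), G630090I18 (Pde4d) and G830046L15 (Mecom), whose tests are therefore not independent of the rule. The other called clones were 58 higher and 54 lower.

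The genes opposite moved with the called clones. Among the 67 clones that rose, the gene opposite also rose in 52 cases, fell in none and was not called in 15, of which 12 had the same sign. Among the 57 clones that fell, the gene also fell in 37 cases, rose in none, was tested and not called in 16, of which 15 had the same sign, and was not tested in 4. From the side of the genes, 249 clones lay opposite a called gene, and 89 of these were called (35.7%), with the same sign as the gene in 234 of 249. Opposite the 1418 genes that were tested and not called, counted once per clone, 31 clones were called (2.19%). Since reads of a gene may be counted in the clone opposite, these counts are no independent evidence that the antisense strand changed.

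**Figure D1:**
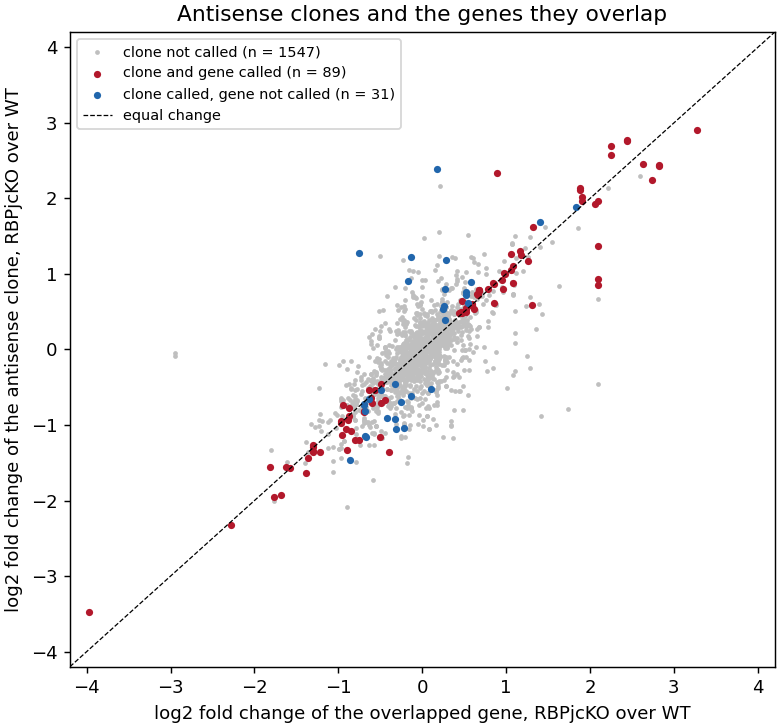
Log2 fold change (RBPjcKO over WT) of each antisense clone, on the vertical axis, against that of its overlapped gene, on the horizontal axis; colours mark 89 clones called together with their gene and 31 called where the gene was not, and the dashed line marks equal change. Most called clones lie along the line, and a few lie far from it, among them clones opposite Copg2 with a gene change of 2.09.

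Across 1667 pairs in which clone and gene were both tested, the log2 fold changes of clone and gene had a Pearson's r of 0.75, and the median size of their difference was 0.17. For 10470 pairs of a clone and a named gene on the same strand, r was also 0.75 and the median difference 0.17. The points share libraries, and clones that overlap a gene may share its reads, so these values are a description.

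The largest rise among clones with at least 0.5 CPM in a group was that of A630076J08. This clone lies inside Iqgap3, which encodes a scaffold protein of the cytoskeleton, at chr3:88107116-88112164 on the minus strand. It had 5.69, 3.43 and 7.45 CPM in RBPjcKO libraries, against 0.678, 0.568 and 0.964 CPM in WT libraries, a log2 fold change of 2.91 (SE 0.34, edgeR adjusted p = 0.00304). All RBPjcKO libraries lay above all WT libraries. Iqgap3 itself had 26.2, 15.2 and 34.8 CPM in RBPjcKO libraries, against 1.38, 1.99 and 4.56 CPM in WT libraries (log2 fold change 3.27, SE 0.46, edgeR adjusted p = 0.00532). The row length of A630076J08 is 4512 bases, and its interval held the same number of bases annotated as exon on the other strand. Its RPKM, which corrects for length, was 0.28 of that of Iqgap3 over the 6 libraries.

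Clones opposite 3 genes of mitosis rose with them. A230074C22 had 2.54, 1.37 and 2.99 CPM in RBPjcKO libraries, against 0.351, 0.480 and 0.417 CPM in WT libraries (log2 fold change 2.46, SE 0.36, edgeR adjusted p = 0.00603), and Plk1 averaged 17.0 ± 6.66 CPM against 2.74 ± 0.73 CPM (SD, n = 3 each; log2 fold change 2.63). The clone 4930440E06 had 2.95, 1.96 and 3.87 CPM in RBPjcKO libraries, against 0.538, 0.459 and 0.859 CPM in WT libraries (log2 fold change 2.25, SE 0.35, edgeR adjusted p = 0.00776), and Ube2c averaged 13.6 ± 5.78 CPM against 2.05 ± 1.07 CPM (log2 fold change 2.74). In both pairs the RBPjcKO libraries lay above the WT libraries, and replicate 2 was the lowest RBPjcKO library for clone and gene alike. The 5′ clone of Nek2, G830028C15, had 1.80, 0.853 and 2.31 CPM in RBPjcKO libraries, against 0.234, 0.131 and 0.365 CPM in WT libraries (log2 fold change 2.77, SE 0.50, edgeR adjusted p = 0.0130), and Nek2 averaged 9.65 ± 3.34 CPM against 1.78 ± 0.35 CPM (log2 fold change 2.44). Without WT replicate 2 the adjusted p of G830028C15 was 0.0576. The clone-to-gene ratio of RPKM ran from 0.37 to 0.48 in RBPjcKO libraries and from 0.22 to 0.43 in WT libraries at Nek2.

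Nusap1 carried a pair of called clones at separate places. F830002E01, at its 3′ end, had 4.06, 2.93 and 5.34 CPM in RBPjcKO libraries, against 0.327, 0.830 and 1.15 CPM in WT libraries (log2 fold change 2.42, SE 0.42, edgeR adjusted p = 0.0116). B830037D16, inside the gene, had 0.912, 0.541 and 1.28 CPM in RBPjcKO libraries, against 0.0468, 0.218 and 0.234 CPM in WT libraries (log2 fold change 2.44, SE 0.56, edgeR adjusted p = 0.0307). Their groups did not overlap, and Nusap1 had a log2 fold change of 2.83. The call of F830002E01 was lost without WT replicate 2 (adjusted p = 0.0544), and that of B830037D16 without any of RBPjcKO replicates 1 and 3 and the 3 WT replicates (adjusted p between 0.0557 and 0.0896).

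The other rises named lay opposite Adamts9, Slc43a1, Clmp and Pde4d. C130075D09 spans 15055 bases inside Adamts9, which encodes a secreted metalloprotease, and had 6.38, 5.89 and 9.74 CPM in RBPjcKO libraries, against 2.17, 1.68 and 1.15 CPM in WT libraries (log2 fold change 2.13, SE 0.29, edgeR adjusted p = 0.00496). Adamts9 rose with it by a log2 fold change of 1.89. D930003E18 covers the start of Slc43a1, the gene of a transporter of large neutral amino acids, and averaged 0.873 ± 0.209 CPM in RBPjcKO libraries and 0.147 ± 0.098 CPM in WT libraries (SD, n = 3 each; log2 fold change 2.58, edgeR adjusted p = 0.0155, and 0.0697 without WT replicate 2). F730016G06, at the 3′ end of the adhesion gene Clmp, averaged 1.42 ± 0.41 CPM in RBPjcKO libraries and 0.349 ± 0.122 CPM in WT libraries (log2 fold change 2.02, edgeR adjusted p = 0.0159), a call that was lost without RBPjcKO replicate 1 (0.0510) or WT replicate 2 (0.0606). Slc43a1 and Clmp rose by log2 fold changes of 2.25 and 1.90.

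Pde4d, which encodes a phosphodiesterase that breaks down cyclic AMP, changed less than the clone inside it. G630090I18 had 1.63, 0.624 and 1.28 CPM in RBPjcKO libraries, against 0.327, 0.131 and 0.234 CPM in WT libraries (log2 fold change 2.34, SE 0.49, edgeR adjusted p = 0.0217). Pde4d had 17.6, 16.9 and 21.6 CPM in RBPjcKO libraries, against 10.7, 10.1 and 9.32 CPM in WT libraries, a log2 fold change of 0.90. The groups did not overlap for clone or gene. The change of the clone-to-gene ratio was 1.43 on the log2 scale with an edgeR adjusted p of 0.415, so the difference between clone and gene did not pass the test. The call of the clone was lost without RBPjcKO replicates 1 or 3 or WT replicates 2 or 3 (adjusted p between 0.05185 and 0.0850).

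The largest fall among clones with at least 0.5 CPM in a group lay inside Vwf, the gene of von Willebrand factor, the adhesive protein that endothelium releases to bind platelets. F730002F20 (chr6:125683871-125686424, minus strand) had 5.04, 3.33 and 6.08 CPM in RBPjcKO libraries, against 30.8, 27.2 and 14.4 CPM in WT libraries, 5.01-fold lower (log2 fold change −2.33, SE 0.31, edgeR adjusted p = 0.00470). Vwf had 107, 72.2 and 121 CPM in RBPjcKO libraries, against 612, 547 and 302 CPM in WT libraries (log2 fold change −2.28, SE 0.29). The groups did not overlap, and WT replicate 3 was the lowest WT library for both. The RPKM of the clone was 0.159 to 0.174 of that of Vwf in RBPjcKO libraries and 0.166 to 0.174 in WT libraries. Of its 2554 bases, 285 lie in exons of the other strand.

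The smallest standard error among the 10 falls named was at Gna14. The 5′ clone 8030422L16 had 2.60, 3.25 and 3.12 CPM in RBPjcKO libraries, against 9.14, 8.45 and 8.91 CPM in WT libraries (log2 fold change −1.56, SE 0.16, edgeR adjusted p = 0.00177). Gna14 had 4.52, 5.58 and 5.55 CPM in RBPjcKO libraries, against 14.6, 16.5 and 17.3 CPM in WT libraries (log2 fold change −1.63, SE 0.15). The groups did not overlap, and the log2 ratio change of clone to gene was 0.07 (edgeR adjusted p = 0.893).

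F730014G11 lies inside Ccdc88c, which encodes a partner of the Wnt signalling protein Dishevelled. It had 0.543, 0.520 and 0.427 CPM in RBPjcKO libraries, against 2.31, 1.88 and 1.48 CPM in WT libraries (log2 fold change −1.92, SE 0.28, edgeR adjusted p = 0.00608). The clone 1700001E01 lies inside Gpr155, the gene of a lysosomal membrane protein, and had 2.13, 1.77 and 1.07 CPM in RBPjcKO libraries, against 6.15, 4.67 and 4.58 CPM in WT libraries (log2 fold change −1.63, SE 0.28, edgeR adjusted p = 0.0108). The log2 fold changes of Ccdc88c and Gpr155 were −1.68 and −1.39. F430013F04, inside Mcc, had 6.43, 9.47 and 6.62 CPM in RBPjcKO libraries, against 20.1, 20.8 and 20.3 CPM in WT libraries (log2 fold change −1.44, SE 0.17, edgeR adjusted p = 0.00295). Every base of F430013F04 lies in an exon of the other strand, and its RPKM was 1.27 times that of Mcc, whose log2 fold change was −1.36. These 3 clones were called whichever library was left out.

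The remaining falls were called with all libraries and lost without some. They lay opposite Bhlhe41 (9530085M16, log2 fold change −1.95), a transcriptional repressor of the circadian clock, Dsg2 (G630053O03, −1.57), a desmosomal cadherin, and Lamc3 (1700014P11, −1.55), a laminin chain. These 3 genes fell with their clones, with log2 fold changes of −1.76, −1.58 and −1.81, and the call of Bhlhe41 itself was lost without RBPjcKO replicates 1 or 2 or WT replicates 2 or 3 (edgeR adjusted p between 0.0574 and 0.101). Each call was lost without WT replicate 2 (edgeR adjusted p = 0.0760, 0.0814 and 0.0617, in that order). It was also lost without RBPjcKO replicate 2 (0.0516, 0.0538 and 0.0619), and further without WT replicate 3 for Bhlhe41 (0.0648) and without RBPjcKO replicate 1 for Dsg2 and Lamc3 (0.0594 and 0.0571). At 2410066E13Rik (D630012B12, −1.47) and Gm14327 (C230096N10, −1.36) the clone fell and the gene was not called or not tested. The call at 2410066E13Rik was lost without any library except WT replicate 1 (adjusted p between 0.0551 and 0.0694), and that at Gm14327 without RBPjcKO replicates 2 or 3 or WT replicate 2 (between 0.0532 and 0.0943). Gm14327 stands in a cluster of closely similar zinc finger genes, where reads may be split between copies.

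**Figure D2:**
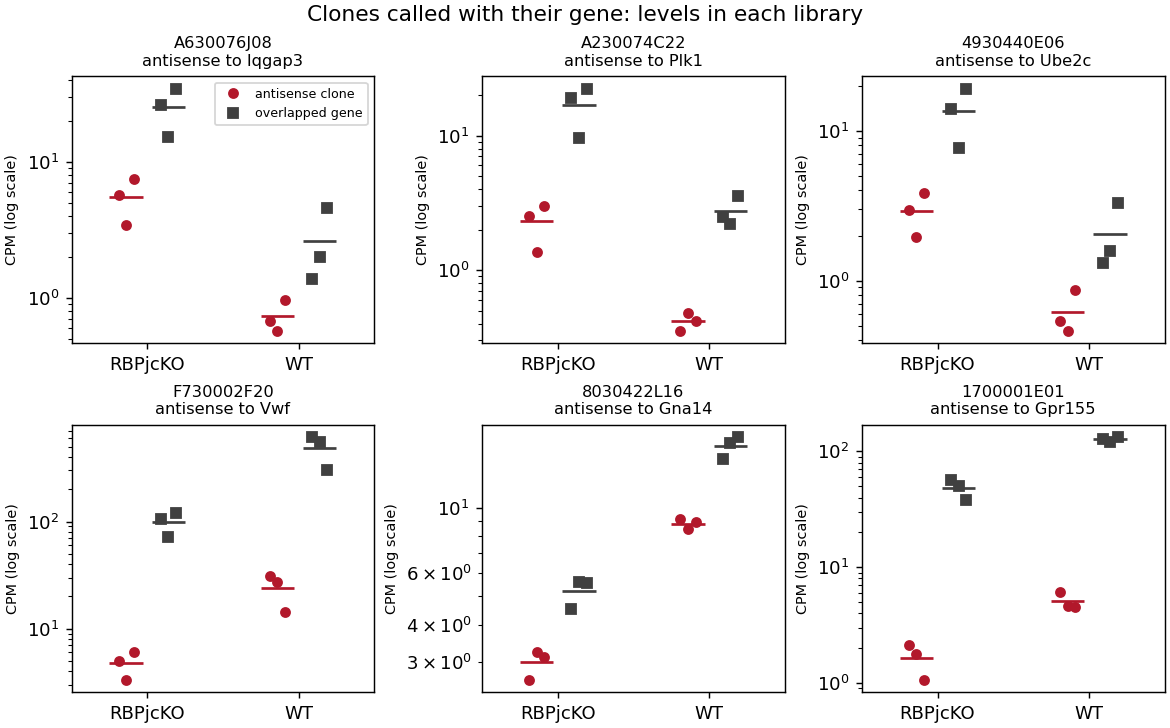
Level of the clone (circles) and of its overlapped gene (squares) in each library, in CPM on a log scale, with bars at the group means; RBPjcKO libraries stand left of WT libraries. In each of the 6 pairs clone and gene moved the same way and the groups did not overlap, with the clone below the gene.

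In the 35 called clones whose gene was not called or not tested, 15 were higher and 20 lower, and 19 of 35 (54.3%) overlapped an exon annotated by GENCODE on their own strand, against 842 of 1747 (48.2%) of all antisense clones. The 5 most abundant of them, and the only 1 called whichever library was left out, were chosen after their values were seen. That clone was 6030455H03, annotated on its own strand as Dnah2os, inside the dynein heavy chain gene listed as Dnahc2. It had 24.0, 20.2 and 22.4 CPM in RBPjcKO libraries, against 13.9, 11.5 and 10.6 CPM in WT libraries (log2 fold change 0.89, SE 0.14, edgeR adjusted p = 0.00759). Dnahc2 had 15.8, 12.96 and 15.3 CPM in RBPjcKO libraries, against 12.1, 9.43 and 8.00 CPM in WT libraries (log2 fold change 0.58, edgeR adjusted p = 0.0681). The groups did not overlap for either, and the RPKM of the clone was 22.2 times that of the gene.

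Among the most abundant, F830224N14 lies inside Camk2b, a calcium-dependent kinase gene, with no exon of the other strand in its 2067 bases. It had 29.9, 26.8 and 22.8 CPM in RBPjcKO libraries, against 70.2, 67.0 and 39.1 CPM in WT libraries (log2 fold change −1.15, SE 0.22, edgeR adjusted p = 0.0157, and 0.0683 without WT replicate 2). Camk2b had 1.35, 2.39 and 1.45 CPM in RBPjcKO libraries, against 2.74, 3.45 and 2.11 CPM in WT libraries, and its RPKM was 38.1 times lower than that of the clone. Clone and gene thus differ in level far more than at most pairs, and the gene's groups overlapped. The clone 5330405E05, inside Grk5, which encodes a kinase of activated G protein-coupled receptors, had 70.0, 48.2 and 69.2 CPM in RBPjcKO libraries, against 152, 157 and 81.5 CPM in WT libraries (log2 fold change −1.06, SE 0.25, edgeR adjusted p = 0.0342). Grk5 had a log2 fold change of −0.31 (edgeR adjusted p = 0.119) and an RPKM 7.63 times lower than the clone. The call at Grk5 remained without WT replicate 3 alone, and leaving out each other library gave an adjusted p between 0.0605 and 0.121. For both clones WT replicate 3 was the lowest WT library, though still above every RBPjcKO library.

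The other abundant clones called without their gene rose. The clone 6720474O18, at the 3′ end of Smg6, an endonuclease gene of nonsense-mediated decay, had 43.1, 45.7 and 42.0 CPM in RBPjcKO libraries, against 32.1, 27.2 and 31.0 CPM in WT libraries (log2 fold change 0.53, edgeR adjusted p = 0.0170). The clone 4833415A22, inside Lrrc33, whose protein holds latent TGF-beta, had 44.0, 34.3 and 56.5 CPM in RBPjcKO libraries, against 23.1, 25.6 and 28.6 CPM in WT libraries (log2 fold change 0.80, edgeR adjusted p = 0.0278). D330042F05, inside the protocadherin gene Pcdhgb2, had 83.3, 94.4 and 88.1 CPM in RBPjcKO libraries, against 68.9, 53.1 and 56.0 CPM in WT libraries (log2 fold change 0.58, edgeR adjusted p = 0.0221). The groups did not overlap in any of the 3, while the log2 fold changes of Smg6, Lrrc33 and Pcdhgb2 were 0.25, 0.27 and 0.26 with edgeR adjusted p of 0.149, 0.214 and 0.146. Each of the 3 calls was lost without WT replicate 2 (0.0748, 0.101 and 0.0918) and without some RBPjcKO libraries. These were replicate 2 for Smg6 (0.0522), replicates 1 and 3 for Lrrc33 (0.0625 and 0.0566) and replicates 2 and 3 for Pcdhgb2 (0.0638 and 0.0525). Without WT replicate 1 the call at Lrrc33 was lost (0.0776), as was that at Pcdhgb2 without WT replicate 3 (0.0647). First exons of the protocadherin cluster resemble each other, so counts there can be split between copies.

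**Figure D3:**
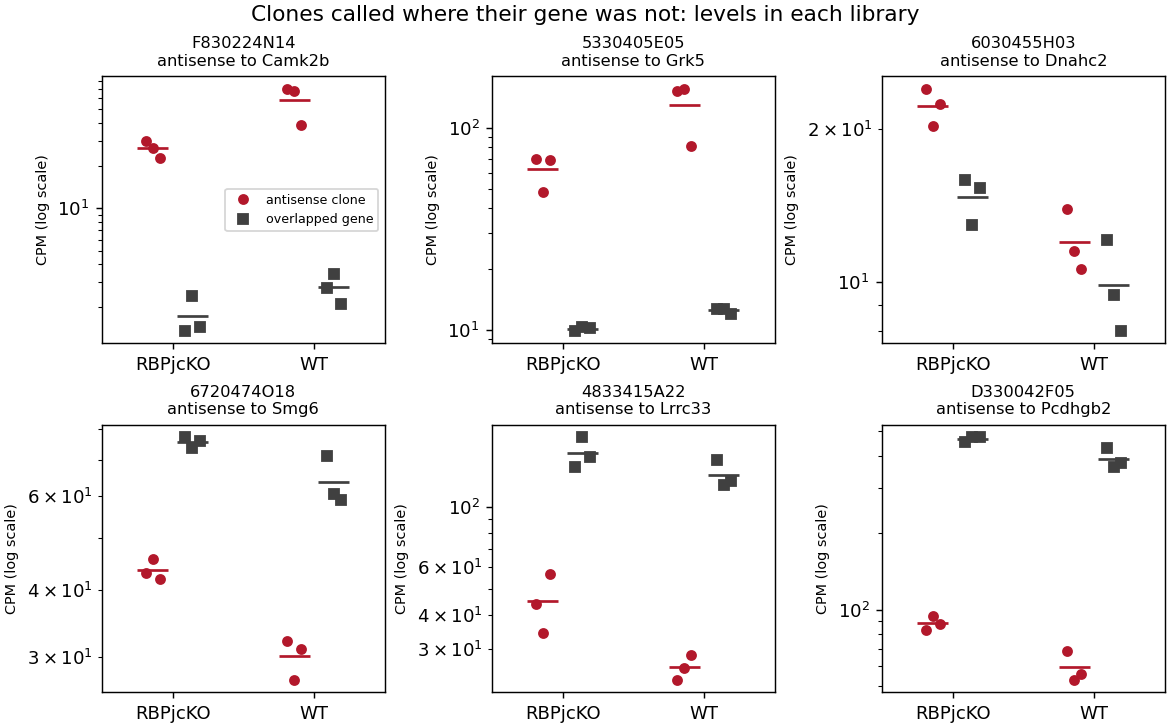
Level of the clone (circles) and of its overlapped gene (squares) in each library, in CPM on a log scale, with bars at the group means, for 6 clones called where the gene was not; RBPjcKO libraries stand left of WT libraries. The clone's groups do not overlap in any panel, and the clones at Camk2b and Grk5 lie far above their genes.

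Whether a clone changed relative to its gene was tested directly, as a change of the clone-to-gene ratio between genotypes over all 12551 pairs of a clone and a named gene. No antisense pair passed edgeR's quasi-likelihood test after Benjamini-Hochberg adjustment (background 0% of all pairs), and the lowest adjusted p was 0.137. At an unadjusted p under 0.05 there were 196 antisense pairs, 11.2% of 1747, against 11.5% of all pairs. With limma on the log2 ratio no pair passed, and the lowest adjusted p of an antisense pair was 0.119. Limma gave 229 antisense pairs, 13.1% of 1747, an unadjusted p under 0.05. The limma share over all pairs is not given here, so this count cannot be set against a background. On simulated counts the ratio test recovered 8.00% of changes of 1.5-fold, 40.3% of 2-fold and 90.5% of 4-fold. In that simulation a change of 2-fold or less was missed more often than found. Its spread between libraries was set in advance and not estimated from these pairs, so the shares need not hold for them. The median size of the ratio change was 0.18 on the log2 scale, 77 antisense clones reached 1 and 14 reached 2, and none of these passed. The shares of all pairs that reached these sizes are not given here.

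The pairs with the lowest unadjusted p are given as a description, since they were picked after their values were seen. At Paqr3, the gene of a Golgi protein that binds Raf kinases, the clone 4930402E15 had 3.69, 3.62 and 3.93 CPM in RBPjcKO libraries, against 1.17, 1.51 and 1.95 CPM in WT libraries (log2 fold change 1.28, SE 0.23, edgeR adjusted p = 0.0136, and 0.0643 without WT replicate 2). Paqr3 had 0.716, 0.562 and 0.918 CPM in RBPjcKO libraries, against 1.12, 1.11 and 1.48 CPM in WT libraries (log2 fold change −0.76, edgeR adjusted p = 0.134). The groups did not overlap for either, with clone and gene on opposite sides. The log2 ratio change was 2.05 (edgeR unadjusted p = 9.72e-05, adjusted p = 0.137). The clone has no exon of the other strand in its 641 bases and overlaps an exon of Bmp2k, a kinase gene on its own strand, in GENCODE. Bmp2k, whose entry in the table ends before the clone starts, had 101, 91.4 and 93.0 CPM in RBPjcKO libraries, against 58.8, 53.1 and 53.9 CPM in WT libraries (log2 fold change 0.78, edgeR adjusted p = 0.00319).

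At Col4a3, the gene of a basement membrane collagen chain, the gene moved and the clones did not pass. Col4a3 had 0.934, 1.64 and 0.512 CPM in RBPjcKO libraries, against 6.01, 9.26 and 8.67 CPM in WT libraries (log2 fold change −2.95, SE 0.39, edgeR adjusted p = 0.00420). The clone C430014B12 had 6.99, 6.30 and 4.85 CPM in RBPjcKO libraries, against 6.52, 6.64 and 5.65 CPM in WT libraries (log2 fold change −0.05, SE 0.18, edgeR adjusted p = 0.879), and its groups overlapped. It reaches only 289 bases into Col4a3 and also overlaps Mff, the mitochondrial fission factor gene, which had a log2 fold change of 0.04. A further clone spans 30132 bases of Col4a3 and had a log2 fold change of −0.08. The log2 ratio changes against Col4a3 were 2.92 and 2.89 (edgeR adjusted p = 0.180 and 0.186), and against Mff, the more abundant of the genes overlapped, that of C430014B12 was −0.10.

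Copg2, a subunit gene of the COPI vesicle coat, carried 9 antisense clones, more than any other gene apart from Snora19 (below). Copg2 had 89.3, 79.1 and 166 CPM in RBPjcKO libraries, against 20.02, 28.8 and 29.7 CPM in WT libraries (log2 fold change 2.09, SE 0.29, edgeR adjusted p = 0.00506). The 9 clones, in 4 loci, ranged from −0.45 to 1.97 on the log2 scale and 4 were called higher. Among the called clones, 6330562F22, A330017H15 and E030002D24 overlap each other, so they may share reads. The 4 called clones had log2 fold changes of 0.86, 0.93, 1.37 and 1.97, all below that of Copg2. E030007N13, the clone farthest from Mest, had 3.97, 2.66 and 3.29 CPM in RBPjcKO libraries, against 3.34, 5.72 and 4.50 CPM in WT libraries (log2 fold change −0.45, edgeR adjusted p = 0.268), with overlapping groups. Its log2 ratio change was −2.47 (edgeR adjusted p = 0.180). Mest, an imprinted gene on the strand of the clones, shares 913 bases with the end of Copg2 and had 189, 168 and 378 CPM in RBPjcKO libraries, against 21.7, 24.7 and 30.8 CPM in WT libraries (log2 fold change 3.25, edgeR adjusted p = 0.00156). RBPjcKO replicate 3 was the highest library for Copg2 and for Mest.

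D130065K19, inside Slc16a6, a gene of the monocarboxylate transporter family, had 16.3, 14.5 and 13.6 CPM in RBPjcKO libraries, against 9.49, 11.3 and 8.57 CPM in WT libraries (log2 fold change 0.59, edgeR adjusted p = 0.0387). Slc16a6 had 23.2, 20.5 and 21.5 CPM in RBPjcKO libraries, against 8.42, 9.69 and 8.28 CPM in WT libraries (log2 fold change 1.30). The clone was above the gene in WT libraries and below it in RBPjcKO libraries, with RPKM ratios of 0.785 to 0.877 in RBPjcKO libraries and 1.28 to 1.45 in WT libraries (log2 ratio change −0.71, edgeR adjusted p = 0.137). The call of the clone was lost without any 1 of the 6 libraries (edgeR adjusted p between 0.0585 and 0.106) and with upper-quartile scaling (0.0522). The clone 9330102C03, at the start of the co-chaperone gene Dnajc7, had 3.93, 3.60 and 3.05 CPM in RBPjcKO libraries, against 1.73, 1.83 and 2.06 CPM in WT libraries (log2 fold change 0.91, edgeR adjusted p = 0.0254), while Dnajc7 had a log2 fold change of −0.17. This clone overlaps an exon of Nkiras2, a protein-coding gene on its own strand in GENCODE, and shares only 158 of its 1250 bases with Dnajc7. Its call was lost without RBPjcKO replicates 1 or 2 or WT replicates 1 or 2 (between 0.0540 and 0.0981). F830211F18, at the start of the palmitoyltransferase gene Zdhhc5, had 0.543, 0.604 and 0.512 CPM in RBPjcKO libraries, against 1.22, 0.982 and 1.12 CPM in WT libraries (log2 fold change −0.996, edgeR adjusted p = 0.0525). It missed the threshold with TMM scaling over all entries, and passed it in edgeR with scaling from named genes (0.0492) or by the upper quartile (0.0460) and in DESeq2 (0.0458). F830211F18 was called in 0 of the 6 edgeR fits that left out a library (adjusted p up to 0.144). Its groups did not overlap. Zdhhc5 itself had 118, 124 and 115 CPM in RBPjcKO libraries, against 103, 106.5 and 108 CPM in WT libraries (log2 fold change 0.17, edgeR adjusted p = 0.246). The log2 ratio change at Zdhhc5 was −1.16 (edgeR adjusted p = 0.137). Inside Pik3ca, 7030422K05 had a log2 fold change of 1.06 (edgeR adjusted p = 0.117), and inside Ube3a, a ubiquitin ligase gene that is imprinted in neurons, E130105I12 had one of −1.01 (edgeR adjusted p = 0.0865). Their levels were below 1 CPM in each library, and 7030422K05 was kept through the RBPjcKO libraries alone.

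**Figure D4:**
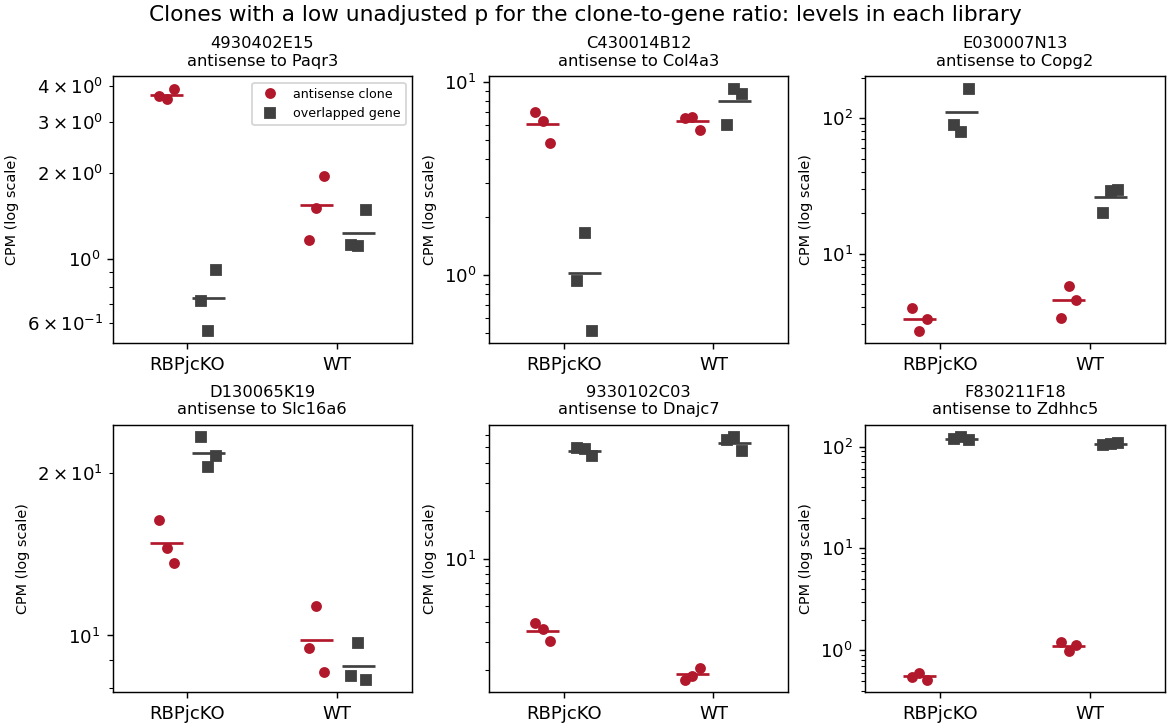
Level of the clone (circles) and of its overlapped gene (squares) in each library, in CPM on a log scale, with bars at the group means, for 6 pairs with a low unadjusted p of the clone-to-gene ratio; RBPjcKO libraries stand left of WT libraries. The log2 fold changes of clone and gene have opposite signs at Paqr3, Copg2, Dnajc7 and Zdhhc5. The clones at Col4a3 and Copg2 overlap between groups while the genes do not.

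Antisense clones of Notch, LSEC identity and endothelial genes were few. From that list 57 genes were tested, with 9 higher and 13 lower (38.6%), and 7 of them carried 8 antisense clones, of which edgeR called none higher and 2 of the 8 lower, against 10.7% of all entries called in either direction. At an unadjusted p under 0.05 there were 3 of the 8 clones, against 28.9% of all entries. DESeq2, which called 17.0% of all entries with an adjusted p, called none higher and 1 lower, since it gave the clone at Mecom no adjusted p. G830046L15, annotated on its own strand as Mecomos, lies inside Mecom, the gene of a transcription factor of blood stem cells and arterial endothelium. It had 2, 0 and 3 counts in RBPjcKO libraries, against 17, 21 and 16 counts in WT libraries, and it was kept through the WT libraries alone. Its fitted log2 fold change was −3.48 (SE 0.67, edgeR adjusted p = 0.0167). Mecom had 1.54, 1.15 and 1.43 CPM in RBPjcKO libraries, against 23.9, 18.4 and 22.7 CPM in WT libraries (log2 fold change −3.98, edgeR adjusted p = 5.55e-05). Both were low in all RBPjcKO libraries, the clone at a handful of counts, and its call was lost without RBPjcKO replicate 1 (0.0542) or WT replicate 2 (0.0703). C730038G18 lies inside Nrp1, a co-receptor gene for VEGF and semaphorins, and had 10.6, 10.8 and 10.9 CPM in RBPjcKO libraries, against 20.6, 15.7 and 16.6 CPM in WT libraries (log2 fold change −0.71, SE 0.14, edgeR adjusted p = 0.0166). Nrp1 fell by 0.50 on the log2 scale, a call lost without any library except WT replicate 1 (edgeR adjusted p between 0.0535 and 0.0927), and that of the clone was lost without RBPjcKO replicates 1 (0.0528) or 2 (0.0514).

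The other 6 clones of endothelial genes did not pass. C130042E01, opposite the 3′ part of the scavenger receptor gene Stab2, had 141, 161 and 135 CPM in RBPjcKO libraries, against 152, 123 and 123 CPM in WT libraries (log2 fold change 0.14, edgeR adjusted p = 0.497). The clone 0610009E02, at the 3′ end of Notch1, had 90.8, 96.5 and 93.0 CPM in RBPjcKO libraries, against 103, 89.5 and 83.3 CPM in WT libraries (log2 fold change 0.03, SE 0.10, edgeR adjusted p = 0.898). Their groups overlapped, as did those of Maml1 clone B430005K18 (log2 fold change −0.26) and Gata6 clone 1010001N08 (−0.45). Maml1 encodes a co-activator of the Notch and Rbpj complex, and Gata6 a transcription factor. F830037H19, inside Nrp2, had 0.347, 0.2497 and 0.320 CPM in RBPjcKO libraries, against 0.164, 0.0873 and 0.234 CPM in WT libraries (log2 fold change 0.93, edgeR adjusted p = 0.241), without overlap but at 16 counts or fewer in each library. This clone was kept through the RBPjcKO libraries alone (16, 12 and 15 counts, against 7, 4 and 9 in WT libraries). The lack of overlap is therefore not independent of the rule. A further Maml1 clone had a log2 fold change of −0.60 (edgeR adjusted p = 0.133).

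Clones lay below their gene as a rule. Among 1713 clones whose gene was above 0, 1518 (88.6%) had a lower RPKM than the gene, and the median RPKM ratio of clone to gene was 0.275, with quartiles of 0.109 and 0.604. For clones on the same strand as a named gene the median ratio was 0.364. The 5 most abundant antisense clones lay opposite Zfp36, H2-D1, Rhob, Ccdc80 and Hspa1b. F930050L08 covers Zfp36, the gene of an mRNA decay factor that stress induces, and had 2691, 2146 and 2341 CPM in RBPjcKO libraries, against 3484, 1805 and 2200 CPM in WT libraries (log2 fold change −0.06, edgeR adjusted p = 0.894), with an RPKM 0.529 to 0.532 of that of Zfp36 in RBPjcKO libraries and 0.529 to 0.535 in WT libraries. The groups overlapped, and WT libraries were the highest and the lowest for clone and gene alike. The others were those at H2-D1 (5430410E06, log2 fold change −0.38), a class I antigen-presenting molecule, Rhob (E130206M23, 0.06), a small GTPase, Ccdc80 (B930053I17, −0.21), a matrix protein gene, and Hspa1b (7330403C04, −0.30), an inducible chaperone. None of these was called with all libraries. Without RBPjcKO replicate 3 the clone at Hspa1b was called lower (log2 fold change −0.777, edgeR adjusted p = 0.0442), and leaving out any other library gave no call. H2-D1 and Hspa1b have close copies among which counts can be split.

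At the other end, 195 clones had an RPKM at or above that of their gene, and 34 lay opposite a gene listed at 0. Highest in ratio was 5830431H03, inside the potassium channel gene Kcnh6, with 26.9, 45.1 and 15.4 CPM in RBPjcKO libraries, against 9.26, 9.76 and 25.5 CPM in WT libraries (log2 fold change 0.98, edgeR adjusted p = 0.209). Its groups overlapped, and Kcnh6 was listed at 0 in all libraries but RBPjcKO replicate 3. I920040L03, at the start of Gm13710, had 85.0, 94.2 and 149 CPM in RBPjcKO libraries, against 74.4, 74.95 and 100.4 CPM in WT libraries (log2 fold change 0.39, edgeR adjusted p = 0.272). Gm8989 clone D330042P15 (log2 fold change −0.59, called by DESeq2 alone with an adjusted p of 0.0337), A730036I17Rik clone 9830144P21 (0.46) and clone A330022I22 at the zinc transporter gene Slc39a5 (0.14) completed the 5 highest. These 5 genes stayed below 0.5 CPM in every library.

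The share of a clone that lies in exons of the other strand went with how close clone and gene were. Among the 1149 clones made of a single block, the median RPKM ratio was 0.0428 for clones with no such exon, 0.121 for shares up to 10%, 0.316 up to 50%, 0.685 under 100% and 0.546 where the whole clone lay in exons. With no such exon, 153 of 169 clones had a ratio, and the rest, whose gene was at 0 RPKM, do not enter that median. The median size of the difference between the log2 fold changes of clone and gene was 0.39 with no exon and 0.23, 0.14, 0.12 and 0.16 in the groups that followed. Median counts per library differed too, from 31.3 with no exon to 231 in the group under 100%. Called shares were 5.33%, 4.62%, 7.23%, 9.84% and 6.82% in the same order, near or below the background of 10.7%. D530001G04, chosen after its values were seen, lies wholly in the last exon of the actin gene Actb and had an RPKM 0.372 to 0.400 of that of Actb in RBPjcKO libraries and 0.376 to 0.406 in WT libraries. Its own log2 fold change was 0.24 and that of Actb 0.26. The part of unstranded counting in this relation was not tested.

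**Figure D5:**
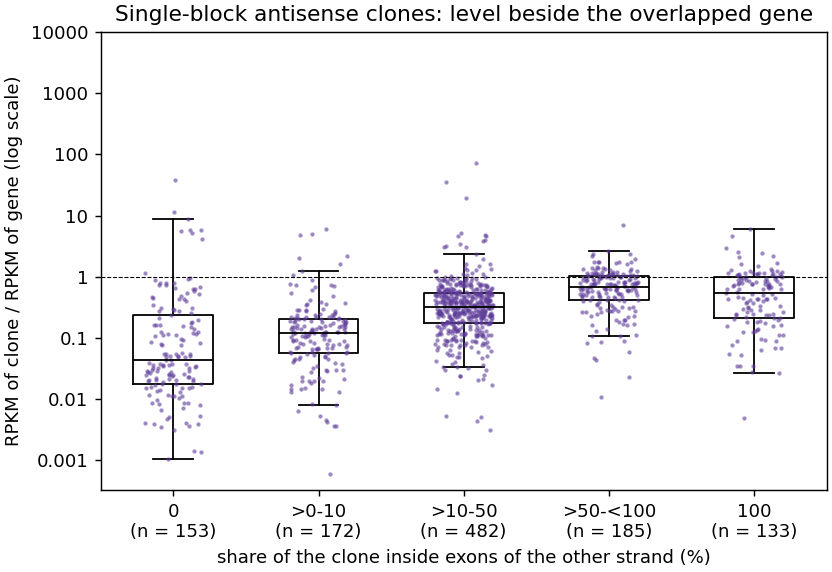
RPKM of single-block antisense clones divided by that of the overlapped gene, on a log scale, by the share of the clone inside exons of the other strand; points are clones, boxes give the quartiles with the median, and the dashed line marks equal RPKM. Medians are 0.0428 with no exon and 0.685 in the group from over 50% to under 100%.

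By position, 925 clones lay inside their gene, 467 covered its 5′ end, 330 its 3′ end and 25 both ends. Of the clones tested, 32 inside were higher and 30 lower (6.75% called), 20 and 15 at the 5′ end (7.58%), 15 and 11 at the 3′ end (7.93%), and none and 1 where both ends were covered (4.00%). These shares lie within a few points of each other and below the 10.7% of all entries. Clones at the 3′ end had a median RPKM ratio of 0.456, against 0.247 inside and 0.234 at the 5′ end. The median overlap with the gene was 2128 bases at the 3′ end and 518 at the 5′ end.

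Own-strand annotation was checked in GENCODE M21. For 842 clones an exon on their own strand overlapped, of which 434 belonged to genes of the antisense class, 124 to its TEC class, 112 to protein-coding genes and 51 to lincRNAs. Named opposite-strand transcripts, whose symbol is that of a gene followed by os, made a further comparison of 13 entries, of which 4 could be tested. Dnm3os, the transcript opposite Dnm3 that carries microRNAs, averaged 0.731 ± 0.421 CPM in RBPjcKO libraries and 0.0929 ± 0.0879 CPM in WT libraries (SD, n = 3 each), 7.59-fold higher (edgeR adjusted p = 0.0480). Its call was lost without any 1 of the 6 libraries (edgeR adjusted p between 0.0694 and 0.142). Slc7a6os, Fam120aos and Ppifos had log2 fold changes of −0.22, −0.17 and 0.11 and were not called.

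Genes that act on antisense or double-stranded RNA did not pass the test. None of 18 tested genes of RNA surveillance and double-stranded RNA was called by edgeR or DESeq2. The background in edgeR was 10.7% of all entries and 14.5% of named genes, and in DESeq2 17.0% of all entries with an adjusted p. At an unadjusted edgeR p under 0.05 there were 0, against 28.9% of all entries. The 18 genes had a median log2 fold change of 0.06. They include Exosc10, a nuclease of the nuclear exosome (log2 fold change 0.18, edgeR adjusted p = 0.295), Dicer1, which cuts double-stranded RNA (−0.28, 0.189), Adar, which edits it (0.02, 0.940), and Ifih1, its cytosolic sensor (0.02, 0.946).

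The rule's threshold cut through low counts. Among antisense clones left out, 616 of 1731 had no count in any library, and 44 had 9 as the third highest count, while 35 clones were kept with exactly 10 as the third highest count. The Ubox5 clone 1700012O15 was kept with 15, 10 and 7 counts in RBPjcKO libraries and 15, 10 and 4 in WT libraries, and the Grhl2 clone 1600010A02 was left out with 0, 9 and 4 counts in RBPjcKO libraries and 14, 19 and 8 in WT libraries. A further 26 clones count as antisense only through Snora19, whose interval in the table spans 35832150 bases for a row length of 111 and which was listed at 0, and none of these was called.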

How the data were processed

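RNA was sequenced as paired reads of 150 bases on an Illumina HiSeq from 3 RBPjcKO and 3 WT libraries, grouped by the genotype label. Per the submitters' processing notes, bcl2fastq and TopHat2 2.0.13 were used, with mm10 (GRCm38) as the build. Not given in the sources used here are the counting tool, the annotation it used and whether it used strand. Per the file headers, the authors deposited a raw read count per entry and library, not normalised. Per the file headers, the authors also deposited RPKM values, used here only for levels compared between clone and gene, and a row length in bases per entry.

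Members and lists were chosen with earlier results of these data known. Overlaps were taken from the start, end and strand in the deposited table. Exons came from GENCODE M21 and promoters from RefSeq. The whole table was filtered with filterByExpr (minimum count 10, minimum total 15), which left 29067 entries and 1733 of the 1747 clones, scaled by TMM and tested in edgeR 4.0.16 by its quasi-likelihood F test (R 4.3.3), adjusted by Benjamini and Hochberg, with calls at an adjusted p under 0.05. The spread between libraries, as a biological coefficient of variation, was 0.21. Each SE is approximate: the log2 fold change divided by the square root of the F statistic. The clone-to-gene ratio was tested in edgeR on the clone count and gene count of each library, with a term per library, over 12551 pairs. Tables and figures were made with Python 3.11.15. On simulated counts the genotype test over 29067 entries recovered 13.6% of changes of 1.5-fold, 47.1% of 2-fold and 89.1% of 4-fold.

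Clones named were the 10 largest rises and 10 largest falls with at least 0.5 CPM in a group, the 5 most abundant, the 5 highest RPKM ratios to the gene, and those opposite listed endothelial genes, 1 per locus. No pair passed the ratio test and no called clone went against a called gene, so those parts of the rule named none. Clones named for a low p of the ratio, for being called without their gene, and the Actb clone were chosen after their values were seen. The rule for opposite-strand transcripts was narrowed, after the entries were seen, to symbols whose stem is a gene of the table. Alternatives were DESeq2 1.42.0, limma 3.58.1 on the log2 ratio with 0.5 added to counts, other filters, scalings and thresholds, and leaving out each library; the set of clones with no exon on the other strand was added after the data were seen.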

Additional observations from a re-analysis of the deposited data

How the results depend on the processing

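No paired analysis was possible because the libraries carry no replicate number of their own and nothing labels a batch, litter or pairing. The replicate numbers used here follow the order of the sample titles within each group. Against 67 clones higher and 57 lower, DESeq2 gave 111 and 102, with 122 of the 124 calls among them. An adjusted p under 0.01 left 16 and 9, and a log2 change of 1 or more in size left 31 and 30. Clones with no exon on the other strand, a set of 199 added after the data were seen, were 7 and 4. All these counts are lower by construction. Shares over all entries at these settings are not given here, so the counts cannot be set against a background. Leaving out each library gave 19 to 53 higher and 19 to 41 lower, lowest without WT replicate 2, and fewer samples lower such counts. The other filters, scalings and overlap rules stayed within 1.5 times the counts. No pair passed the ratio test under any alternative run. Of 52 named clones, 31 were called and 10 of these were called whichever library was left out.

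Values below the threshold turned sign in 25 cases, all at an adjusted p of at least 0.303, and the cause was not tested. Over the fits that leave out 1 library, the log2 fold change of the clone ran between −0.249 and 0.258 opposite Zfp36, −0.145 and 0.278 opposite Rhob, −0.0383 and 0.113 opposite Notch1, −0.55 and 0.088 opposite Maml1, and −0.167 and 0.087 opposite Col4a3. Upper-quartile scaling gave −0.015 opposite Notch1. The log2 ratio change ran between −0.406 and 0.083 for Plk1, −0.664 and 0.027 for the Nusap1 clone B830037D16, −0.099 and 0.072 for Dsg2, −0.0071 and 0.00029 for Zfp36, −2.55 and 1.33 for Kcnh6, −1.28 and 0.46 for A730036I17Rik, −0.421 and 0.46 for Slc39a5, −0.15 and 0.935 for Mecom, −0.10 and 0.149 for Gata6, and −0.048 and 0.016 for Actb. Limma gave 0.39 for Kcnh6 and 0.024 for Slc39a5, and pairing with the most abundant overlapped gene gave −0.10 for the Col4a3 clone, which then stands beside Mff.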
